A study of Drosophila melanogaster with 2 samples.

Results

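On 2-colour arrays of *Drosophila melanogaster* larvae, 58 probes lay on opposite sides of zero in salivary gland and fat body when both organs were measured against brain-disc. They were chosen from the deposited log ratios: a value of 1 or more in size in both columns, with opposite signs. Of the 14532 probes in the table, 8026 had a salivary gland value, 4893 had a fat body value and 4391 had both, so the 58 are 1.32% of the probes that could qualify. In 15 of them (0.342%) the salivary gland value was positive and the fat body value negative. In the other 43 (0.979%) the salivary gland value was negative and the fat body value positive. The 2 directions are described apart, and since their values chose them, these values are a description with no test.

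The salivary gland group set Cy3-labelled RNA of hand-dissected salivary glands against Cy5-labelled RNA of brain-disc complexes, and its deposited column is the average of 3 biological replicates. The fat body group set Cy3-labelled RNA of fat body against Cy5-labelled RNA of brain-disc complexes, and its column is the average of 2 biological replicates. All tissue came from wild-type larvae of the strain the sample labels call yw67c23 (the design text writes yw67c2), which were feeding third-instar animals aged 70 to 75 hours, from eggs laid within 6 hours. No transgene or treatment is named in the labels, and every group carries the same strain background. Brain-disc is a mixture of brain and imaginal discs, and both columns share it as comparator, with the same dye on each side.

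Salivary gland and fat body both grow in the larva by the endocycle, in which cells go through rounds of DNA synthesis without mitosis and become polyploid. The salivary gland is a secretory organ that makes glue proteins late in larval life. The fat body stores nutrients, makes haemolymph proteins and takes part in immune defence, while brain and discs contain dividing precursor cells. Probes on opposite sides of brain-disc are therefore ones in which 2 endocycling organs were measured apart from each other. In whole organs, fewer cells of a type and less RNA per cell cannot be told apart.

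The labels do not state which tissue stands on top of the ratio. The titles name the endocycling organ first, which makes a positive value likely to mean higher in that organ. By that reading the 15 probes were higher in salivary gland and lower in fat body than in brain-disc, and the 43 were lower in salivary gland and higher in fat body. With the ratio turned round in both columns, both descriptions swap, and each probe still has the 2 organs on opposite sides. This takes the 2 columns to have the same orientation, which the labels do not state. With only 1 column turned round, the 2 organs would lie on the same side of brain-disc. The values were read as log2, so a size of 1 is 2-fold, and the rule places the 2 values of a probe at least 2 apart, or 4-fold. The probe IDs name wells of source plates, and 0 of them matched the 17872 genes of the RefSeq table for Release 6, so genes, chromosomes, tissue markers and sequences of these probes are not given here. The naming rule then allows the IDs of the 2 leading probes in each direction, ranked by the smaller of their 2 sizes.

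The salivary-positive, fat-negative probes were led by 1 probe that stood well apart. DAC030G06 had 3.36 in salivary gland and -3.34 in fat body, both on the log2 scale. Its difference of 6.70, salivary gland minus fat body, was the highest among all 4391 probes. DAC026L20 came next, with 2.09 in salivary gland and -2.02 in fat body. These were the only 2 of the 15 with both sizes at 2 or more.

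The other 13 had a smaller size under 1.5, so they sat near the threshold in at least 1 organ. Over all 15, salivary gland values had their lowest at 1.05, their median at 1.23 and their highest at 3.36. Fat body values over the same 15 had their lowest at -3.34, their median at -1.43 and their highest at -1.03. Neither organ dominated: the size was larger in salivary gland for 7 probes and larger in fat body for 8. In 12 of the 15 (80.0%) the 2 sizes lay within 1 of each other. The exceptions included a probe at 1.20 in salivary gland and -3.25 in fat body.

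The 43 salivary-negative, fat-positive probes reached further from zero than the 15 in each organ taken alone. By the smaller of the 2 sizes they reached less far, to 2.42 against 3.34. DAC032E02 had -2.42 in salivary gland and 6.07 in fat body, and its difference of -8.49 was the lowest among all 4391 probes. DAC039I22 had -2.40 in salivary gland and 3.24 in fat body. Only 4 of the 43 had both sizes at 2 or more, and 28 had a smaller size under 1.5. Both sizes were 1.25 or more in 27 of the 43, against 4 of the 15, so the 15 lay closer to the threshold.

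Salivary gland values of the 43 had their lowest at -4.78, their median at -1.58 and their highest at -1.01. Their fat body values had their lowest at 1.0045, their median at 1.43 and their highest at 6.07. The size was larger in salivary gland for 27 probes and larger in fat body for 16. The probes most extreme in 1 organ were not the most extreme in the other, where their values lay on both sides of the median. The 5 lowest salivary gland values, -4.78 to -3.50, went with fat body values of 1.13 to 2.37. The 5 highest fat body values, 3.44 to 6.07, went with salivary gland values of -2.42 to -1.07. Across the 43 probes, which share arrays and comparator and were cut off at the threshold, Spearman's rho between the columns was -0.13 and Pearson's r was 0.00111.

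Set beside the lists they were drawn from, the opposite probes were a small part of each. The background over the 4391 probes was 16.6% at or above 1 in salivary gland and 30.6% at or below -1 in fat body. The 15 probes made up 2.06% of the 729 in that salivary gland list and 1.12% of the 1342 in that fat body list. For the other direction the background was 36.6% at or below -1 in salivary gland and 17.9% at or above 1 in fat body. The 43 probes made up 2.68% of the 1607 in that salivary gland list and 5.47% of the 786 in that fat body list. Since the rule used these contrasts, nothing is read from the shares.

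A difference of 2 or more between the organs did not by itself place them on opposite sides. Of 149 probes with a salivary gland minus fat body difference of 2 or more, the 15 made up 10.1%. Of 333 probes with a difference of -2 or less, the 43 made up 12.9%. Among the 10 highest differences 3 belonged to the 15, and among the 10 lowest 4 belonged to the 43.

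Most opposite signs in the table were small. A positive salivary gland and a negative fat body value were found together in 370 probes (8.43% of the 4391), and the reverse in 579 (13.2%). The 5 of the 15 nearest the threshold had a smaller size of 1.03 to 1.10, and the 5 nearest probes outside it had 0.93 to 0.99. For the other direction these ranges were 1.0045 to 1.08 inside and 0.989 to 0.998 outside. With a smaller size of at least 0.9, a further 7 and 17 probes would have joined the 2 directions. Membership near the threshold is therefore a matter of hundredths on the log2 scale.

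The rule needs a value in both organs, and many probes past 2-fold had only 1. Of those that could have joined the 15, 1103 with a salivary gland value at or above 1 had no fat body value, and 17 with a fat body value at or below -1 had no salivary gland value. Of those that could have joined the 43, 833 with a salivary gland value at or below -1 had no fat body value, and 448 with a fat body value at or above 1 had no salivary gland value. How many of these would be opposite cannot be counted from the table. What led to a missing value is not stated in the labels or in the table.

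The last digits of a value, which the rule did not use, tell something of how many arrays stand behind it. Single values were read as having 3 decimals. A mean of 3 arrays often ends in a repeating fraction and a mean of 2 often ends in an added 5, whereas a value that stops at the third decimal may be a single array or an average that happens to come out even. A larger share of values stopping at the third decimal goes with fewer averaged arrays.

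Salivary gland values of the 43 salivary-negative probes stopped at the third decimal in 30 cases (69.8%, exact 95% interval 53.9 to 82.8%). Over all 4391 probes this held for 1850 (42.1%, 40.7 to 43.6%), and over the 994 probes negative in both organs for 413 (41.5%, 38.5 to 44.7%). From these counts an estimated 22.5 of the 43 salivary gland values (52.3%) came from 1 array, against 7.65% over all 4391 probes. The estimate carries a large error in so few probes: made in the same way on their fat body values, it gave -7, which no count can be. The intervals cover counting error only and treat probes as independent. The direct count is the firmer measure: 11 of the 43 ended in a repeating fraction (25.6%), against 46.8% of all 4391.

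The share was as high within narrower ranges of the salivary gland value. Among salivary gland values between -1.5 and -1, the value stopped at the third decimal in 14 of 20 members (70.0%), against 199 of the other 530 probes in that range (37.5%). At -1.5 or less it did so in 16 of 23 members (69.6%), against 444 of the other 1034 (42.9%). The 9 members at -2.5 or less included 8 that stopped at the third decimal and 0 that ended in a repeating fraction, against 182 (45.8%) and 170 (42.8%) of the other 397 probes there. The share also stood at 55.2% in the 290 probes with a difference of -2 or less that were not members, and at 50.0% in the 276 probes with a fat body value at or above 1 and a salivary gland value within 1 of zero. In the 570 probes with a salivary gland value at or below -1 and a fat body value within 1 of zero it was 40.4%. Of these 3 sets of similar probes, 2 thus lay between the 43 and the whole table, and the set with the same salivary gland range lay just below the whole table.

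The share was lower when milder opposite values were let in. Salivary-negative, fat-positive probes stopped at the third decimal in 51.9% of 289 with both sizes at 0.25 or more, in 56.3% of 144 at 0.5, in 58.2% of 79 at 0.75 and in 69.8% of the 43 at 1. At 1.25 it was 77.8% of 27, and at 1.5 it was 73.3% of 15. These sets are nested, so their shares are not independent. In the salivary-positive, fat-negative direction the shares were 39.8% of 166 at 0.25, 41.4% of 70 at 0.5, 30.3% of 33 at 0.75 and 40.0% of the 15 at 1 (exact 95% interval 16.3 to 67.7%). Beyond that size it held 1 of 4 probes at 1.25 and 0 of 2 at 1.5. The interval of the 15 includes the 42.1% of all probes.

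The fat body values gave no such contrast. Of the 43, 25 ended in an added 5 and so were averages of 2 arrays, and 18 (41.9%, exact 95% interval 27.0 to 57.9%) stopped at the third decimal, against 51.4% of all 4391 probes. Of the 15, 6 ended in an added 5 and 9 (60.0%, 32.3 to 83.7%) stopped at the third decimal. Both intervals include the share over all probes.

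Full averages in both organs could be shown for 9 of the 58 probes. The 4 of these that were salivary-positive had salivary gland values of 1.05 to 2.09 and fat body values of -3.25 to -1.03. They included DAC026L20 but not DAC030G06. The salivary gland value of DAC030G06 ended in an added 5, as a mean of 2 arrays does, and its fat body value stopped at the third decimal. The 5 that were salivary-negative had salivary gland values of -2.42 to -1.01 and fat body values of 1.0045 to 4.64. They included neither of the 2 leading probes of that direction, DAC032E02 and DAC039I22, whose salivary gland values both stopped at the third decimal. Over the 1030 probes of the table with averages shown in both organs, the 2 directions then stood at 0.388% and 0.485%, against 0.342% and 0.979% of all 4391. The first 2 of these shares rest on 4 and 5 probes, and no interval was computed for them. Salivary gland values stopping at the third decimal were more frequent in the 43 than over all probes. They were not more frequent in probes with a salivary gland value at or below -1 and a fat body value within 1 of zero (40.4%). Their share was raised, though, in the 290 probes with a difference of -2 or less that were not members (55.2%). It was 50.0% in the 276 probes with a fat body value at or above 1 and a salivary gland value within 1 of zero. The part of array number in the count of 43 was not tested.

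The place of the members on the source plates was compared with that of all probes, since the values of the table vary with it. Positions were counted from 1 to 12, starting again at column 13 of a plate. In the first 6 positions lay 30 of the 43 (69.8%, exact 95% interval 53.9 to 82.8%) and 7 of the 15 (46.7%, 21.3 to 73.4%), against 2392 of the 4391 probes (54.5%). Both intervals include the share of all probes, that of the 43 only narrowly. The split after position 6 was not placed where the differences given next change, which was after position 4. Over all probes the median salivary gland minus fat body difference lay between -0.65 and -0.36 at positions 1 to 4 and between -0.07 and 0.10 at positions 5 to 12. Positions 1, 2, 3 and 4 held 5, 6, 7 and 3 of the 43, and 0, 2, 0 and 0 of the 15. All probes with both values numbered 457, 423, 414 and 376 there. The part of plate position in the 2 counts was not tested. After each of 48 position classes was shifted to 1 median, 31 of the 43 and 9 of the 15 still passed the rule. All 43 and all 15 kept opposite signs, but their sizes were at least 1 and their shifts smaller, so no sign could change. The median of the 43 was then -1.72 in salivary gland and 1.47 in fat body, and that of the 15 was 1.37 in salivary gland and -1.25 in fat body. By source plate the 58 probes were spread over 31 of the 40 plates that held probes with both values, with at most 4 on 1 plate.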

How the data were processed

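The data are the authors' deposited table of log ratios from 2-colour arrays with 14532 probes. Per the labels, each column is an average of biological replicates, 3 for salivary gland and 2 for fat body, and no other column was left unused. The deposited values were read as log2 from their range. The background correction, normalization, centring and filter are not stated in the labels or the table, and the number of arrays, not a read depth, limits the precision. With 1 averaged column for each organ no error or p-value can be attached to a probe.

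Probes with both values were sorted by the rule with Python 3.11.15, pandas 2.3.3, numpy 2.4.6 and scipy 1.17.1. Last digits were matched within a tolerance of 0.002 in units of the third decimal, and the reading was tested on simulated averages of a column's length, not of sets as small as the members. The single-array estimate takes, from the salivary gland values stopping at the third decimal, the number that even averages would give. Intervals are exact (Clopper-Pearson). Alternatives were thresholds of 1.5-fold and 3-fold, centring on 2 medians, scaling, a shift of plate positions and restriction to shown averages. Counting probes with identical values once was a further alternative. Probes were named if among the 2 leading in a direction, ranked by the smaller size. The members and lists were chosen with earlier results of these data known. The gene lists drawn up for the tissues were not applied, since no probe had a gene name.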

Additional observations from a re-analysis of the deposited data

Results flagged for a closer look

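The salivary gland was positive and the fat body negative at 15 probes, and the salivary gland was negative and the fat body positive at 43. Both counts are listed because the 2 organs lay in opposite directions against the same comparator. That opposition is the rule that chose the probes, so it is not a finding. The difference between the organs was not tested at any probe, since each organ has 1 averaged column.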

How the results depend on the processing

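No paired analysis was possible because each organ has 1 column of averages, which also leaves no replicate to take out. Of the 18 counts from alternative settings, 10 differed by at most 1.5 times and 8 by more. The 10 include the counts of 15 and 43 with probes of identical values counted once. That setting removed none of the 4391 probes, so it says nothing about stability. The salivary-positive, fat-negative count of 15 became 52 at 1.5-fold, 2 at 3-fold, 4 among the 1030 probes shown to be averages of 3 and 2 arrays, and 5 among the 1251 shown to be averages of at least 2 in both organs. The salivary-negative, fat-positive count of 43 became 121, 10, 5 and 6 under those same settings. The looser or stricter threshold and the smaller number of probes follow from how these settings are built. Counts that stayed close did not always hold the same probes. With each column centred on its median over the 4391 probes, the counts were 18 and 34, of which 8 and 22 were among the reported 15 and 43. With centring on the median over all values they were 17 and 46, with 11 and 36 retained, and with scaling by the median absolute deviation 19 and 46, with 13 and 36 retained. After the position shift they were 13 and 40.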

Other observations

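Among the 43 salivary-negative, fat-positive probes, 2 pairs came from wells that lay 2 apart in the same row of a source plate. How often this spacing arises among all probes was not counted. In the first pair the salivary gland values were -1.48 and -4.78 and the fat body values 1.28 and 1.90, and the well between had -1.61 in salivary gland and no fat body value. In the second pair the salivary gland values were -3.84 and -1.42 and the fat body values 1.13 and 1.25, and the well between had -0.62 in salivary gland and 0.92 in fat body, short of the threshold in both.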
